A study of Mus musculus with 2 samples.

Results

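The uroplakin genes Upk1a, Upk1b, Upk2, Upk3a and Upk3b were followed in mouse ureter explants exposed to NOGGIN, an extracellular antagonist of bone morphogenetic proteins (BMPs), and in explants left without it. They were found as the gene probes whose RefSeq accession maps to one of these symbols. All 5 genes were on the array, each with 1 probe printed as 4 spots, among 39429 gene probes in all, and all 5 were among the 21337 genes tested. The filter on dim probes did not decide this, since all 4 spots of each probe were well above background in both channels of both arrays.

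The ureters came from E12.5 embryos, wildtype NMRI and of mixed sex, and were kept for 18 h on transwell membranes. One group had 10 µg/ml NOGGIN in the medium and the control group had plain medium. Measurements came from 2 Agilent arrays of the 2-colour type, here array 1 and array 2 for replicates 1 and 2, and each carried RNA of 1 control and 1 NOGGIN sample. Per the labels, on array 1 the control was labelled with AlexaFluor647 (red) and the NOGGIN sample with AlexaFluor555 (green), and on array 2 the dyes were exchanged. How many embryos entered a culture, and whether the replicates came from separate cultures or litters, is not given in the labels, so the spread between arrays may be technical.

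Uroplakins are membrane proteins of the urothelium, the epithelium that lines the urinary tract. Upk1a and Upk1b encode tetraspanins, while Upk2, Upk3a and Upk3b encode proteins that cross the membrane once. UPIa pairs with UPII, and UPIb pairs with UPIIIa or UPIIIb, before the pairs leave the endoplasmic reticulum and assemble into the rigid plaques that make the surface of superficial cells a barrier to urine. Upk3b and Upk1b are also known as genes of mesothelium. In the ureter the epithelium becomes layered and makes its uroplakins as it receives signals from the surrounding mesenchyme, BMP4 among them.

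Shown are the 250 bases before the annotated start of 3 of the 5 genes, the ones for which a promoter sequence was available. They are RefSeq sequences of the build GRCm38.p6, written along the gene's strand. Upk1a is the stretch chr7:30612735-30612984 on the minus strand, Upk3a is chr15:85016891-85017140 on the plus strand and Upk3b is chr5:136038246-136038495 on the plus strand. The table held no entry for Upk1b and Upk2. Capitals mark matches, on either strand, to 8 short motifs.
Upk1a: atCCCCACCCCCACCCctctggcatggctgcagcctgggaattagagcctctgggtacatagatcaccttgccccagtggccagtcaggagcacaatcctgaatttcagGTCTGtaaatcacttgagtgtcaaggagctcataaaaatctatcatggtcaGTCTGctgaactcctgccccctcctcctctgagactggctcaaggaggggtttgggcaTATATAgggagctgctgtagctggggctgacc
Upk3a: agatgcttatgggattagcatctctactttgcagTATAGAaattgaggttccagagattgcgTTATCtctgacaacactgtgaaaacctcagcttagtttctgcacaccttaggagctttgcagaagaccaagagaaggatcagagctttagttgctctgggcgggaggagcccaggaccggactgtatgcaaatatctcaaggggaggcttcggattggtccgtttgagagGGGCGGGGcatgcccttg
Upk3b: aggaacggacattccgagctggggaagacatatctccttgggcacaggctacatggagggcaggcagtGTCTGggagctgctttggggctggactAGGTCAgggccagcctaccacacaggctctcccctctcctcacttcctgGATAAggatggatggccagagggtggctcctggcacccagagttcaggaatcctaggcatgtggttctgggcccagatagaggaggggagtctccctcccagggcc

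The motif CAGAC and the GC-rich motif GGCGCC are bound by SMAD proteins, the transcription factors downstream of BMP receptors. The motif AGGTCA is the core of nuclear receptor sites such as those of PPARG. The others were GATAA for GATA factors, AACNGGTT for grainyhead factors, TGTTTNC for forkhead factors, GGGNGGGG for KLF factors and TATANA for the core promoter. In Upk1a the SMAD motif was matched in reverse (GTCTG) at -141 to -137 and at -90 to -86, counted from the start. Upk1a also held the KLF motif in reverse (CCCCACCC) at -248 to -241 and, overlapping it, at -242 to -235, and a core promoter match (TATATA) at -32 to -27. In Upk3a a core promoter match (TATAGA) lay at -216 to -211, a reverse GATA match (TTATC) at -188 to -184 and a KLF match (GGGCGGGG) at -18 to -11. In Upk3b a reverse SMAD match (GTCTG) lay at -182 to -178, a nuclear receptor match (AGGTCA) at -155 to -150 and a GATA match (GATAA) at -106 to -102.

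Such matches are common. Of 32851 promoter stretches of this length in the table, 42.2% held the CAGAC motif on either strand, 14.0% held AGGTCA, 22.6% held GATAA, 30.8% held GGGNGGGG and 22.6% held TATANA. The 3 windows held no match to GGCGCC (found in 9.6% of stretches), to AACNGGTT (1.8%) or to TGTTTNC (17.8%). A match is a run of letters, and binding was not measured in these samples.

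Upk1a, Upk1b and Upk2 were higher in the NOGGIN-labelled channel on both arrays, and Upk2 alone passed the test (adjusted p of 0.05 or less in limma, a linear model with moderated variance, two-sided, over all 21337 genes). Upk3b was higher by less, and Upk3a went in opposite directions on the arrays. So 1 of 5 members was called higher and 0 lower, beside 3.95% of all genes called higher and 4.03% called lower (7.97% in either direction). Of the 5, 4 were higher on both arrays, as were 33.6% of all genes (33.1% were lower on both, the share that applies with the sign turned), and 0 reached 1.5-fold on both arrays, which 1.35% of all genes did upward and 1.55% downward. Log2 ratios are NOGGIN-labelled over control-labelled channel, as mean ± SD over the arrays (n = 2). The authors' deposited table of signed fold changes has the opposite sign for each uroplakin gene on both arrays. By the label dyes, 8 of 8 direct BMP response genes were called higher (median 1.70), though a BMP antagonist should lower them. The direction is thus not settled by these data. With the sign turned, each "higher" becomes "lower", and neither the size nor the p-value moves.

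Upk2 encodes UPII, the single-span partner of UPIa. Its probe read log2 normalised intensities of 10.42 in the control and 11.19 in the NOGGIN channel of array 1, and 10.50 and 10.95 on array 2. Both NOGGIN values lay above both control values, as for 25.5% of all genes tested (25.7% were apart with NOGGIN lower, 51.2% in either direction). The log2 ratio was 0.77 on array 1 and 0.45 on array 2, with a mean of 0.61 ± 0.23, a 1.53-fold difference (95% interval 0.35 to 0.87, adjusted p = 0.0311 in limma). Its mean ratio lay above that of 98.3% of all genes, or below it with the sign turned. In the authors' deposited table its signed fold change was -1.76 on array 1 and -1.39 on array 2. With median centring in place of loess, the adjusted p was 0.180, and under that setting 0 of all genes passed (3572 with an unadjusted p of 0.05 or less).

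Upk1a encodes the tetraspanin UPIa, the receptor on the urothelial surface for the fimbrial adhesin of uropathogenic Escherichia coli. Its levels were 11.47 (control) and 12.30 (NOGGIN) on array 1, and 11.86 and 12.19 on array 2. The NOGGIN values again lay above both controls, though the controls differed from each other more than the NOGGIN values did. The log2 ratio was 0.83 on array 1 and 0.32 on array 2, with a mean of 0.58 ± 0.36 (1.49-fold, 95% interval 0.24 to 0.92). It did not pass in limma (adjusted p = 0.0712), but passed narrowly with no background correction (0.0475), with scaling between arrays (0.0493) and with trended, robust moderation (0.0484). One of its 4 spots on array 2 was flagged as an outlier by the scanner software and was left out.

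Upk1b encodes the second tetraspanin, UPIb. Its levels were 10.59 (control) and 11.28 (NOGGIN) on array 1, and 10.80 and 11.06 on array 2. Here too both NOGGIN values lay above both control values. The log2 ratio was 0.69 on array 1 and 0.26 on array 2, with a mean of 0.48 ± 0.31 (1.39-fold, 95% interval 0.17 to 0.78), and it did not pass in limma (adjusted p = 0.0892). The interval of each tetraspanin gene lay above 0, so the missed threshold, which is adjusted over all genes, does not show that these genes were unchanged.

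Upk3a encodes UPIIIa, the member with the longest cytoplasmic tail and a partner of UPIb. Its levels were 11.28 (control) and 10.94 (NOGGIN) on array 1, and 11.12 and 11.35 on array 2. The NOGGIN sample was thus the lowest of the 4 values on array 1 and the highest on array 2, and the groups overlapped. The log2 ratio was -0.34 on array 1 and 0.22 on array 2, and the mean of -0.058 ± 0.40 did not pass in limma (95% interval -0.42 to 0.31, adjusted p = 0.862). Opposite signs on the arrays were seen for 33.3% of all genes tested. The deposited table shows the same split, with signed fold changes of 1.27 and -1.15 in the authors' deposited table.

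Upk3b encodes UPIIIb, an alternative partner of UPIb. Its probe was dim, and its red signal stood little above the local background. The mean signal on array 1 was 219 over a local background of 120 in the control and 134 over 24.2 in the NOGGIN channel, and on array 2 it was 121 over 24.2 in the control and 263 over 117 in the NOGGIN channel. Its normalised levels were 7.31 (control) and 7.72 (NOGGIN) on array 1, and 7.53 and 7.59 on array 2, which do not overlap but lie close together. The log2 ratio was 0.41 on array 1 and 0.062 on array 2, with a mean of 0.24 ± 0.25 (95% interval -0.032 to 0.50, adjusted p = 0.265 in limma). The size depended on how the background was handled, with 0.43 from Agilent's processed signals. The authors' deposited table gave 0.44 once its sign was turned. Upk3b did not pass in either.

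**Figure D1:**
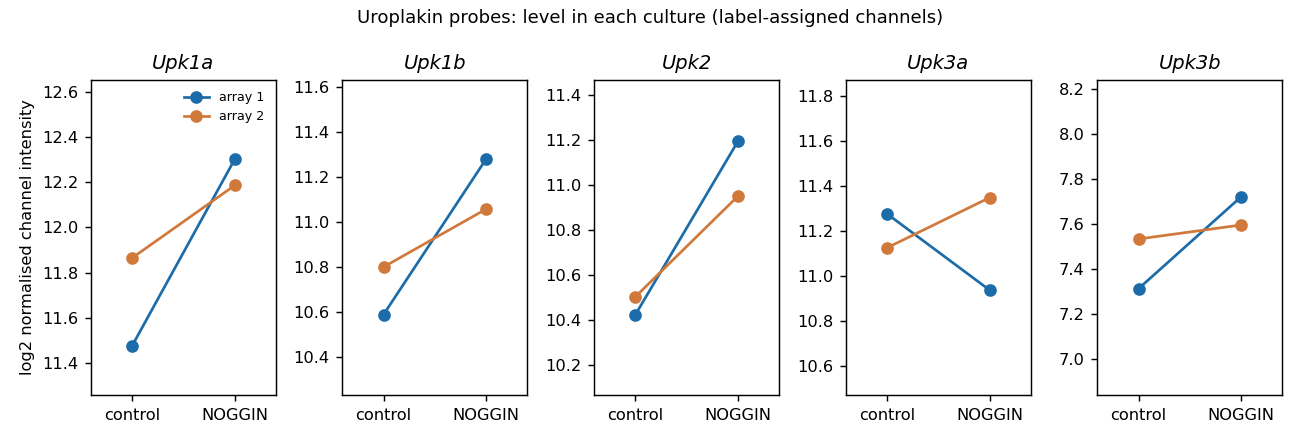
Log2 normalised channel intensity (vertical axis) of each uroplakin probe in the control and NOGGIN sample of array 1 and array 2, 1 panel per gene with its own range of equal length. Lines join the channels of 1 array. They rise on both arrays for Upk1a, Upk1b, Upk2 and Upk3b, and cross for Upk3a (-0.34 and 0.22 in log2 ratio).

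The arrays differed from each other far more than the spots of a probe did. Within an array, the 4 spots of a member (3 for Upk1a on array 2) had an SD of 0.0165 to 0.10 in log2 ratio. For Upk1a the lowest and highest spot were 0.75 and 0.91 on array 1 and 0.30 and 0.37 on array 2, so the spots of both arrays did not meet. The same held for Upk1b, with spots from 0.64 to 0.74 and from 0.24 to 0.27, and for Upk2, with 0.71 to 0.83 and 0.36 to 0.52. For Upk3a the spots lay from -0.40 to -0.31 on array 1 and from 0.18 to 0.28 on array 2. For Upk3b they lay from 0.32 to 0.49 on array 1 and from -0.032 to 0.20 on array 2, so its lowest spot there was negative.

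The SD between arrays was 0.23 for Upk2, 0.25 for Upk3b, 0.31 for Upk1b, 0.36 for Upk1a and 0.40 for Upk3a, beside a median of 0.0853 over all genes tested. That of Upk2 was above 89.4% of all genes and that of Upk3a above 98.1%. The ratio was larger on array 1 for 4 members and larger on array 2 for Upk3a. Replicate and dye orientation changed together from array 1 to array 2, so a difference between samples and a difference between dyes cannot be told apart.

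**Figure D2:**
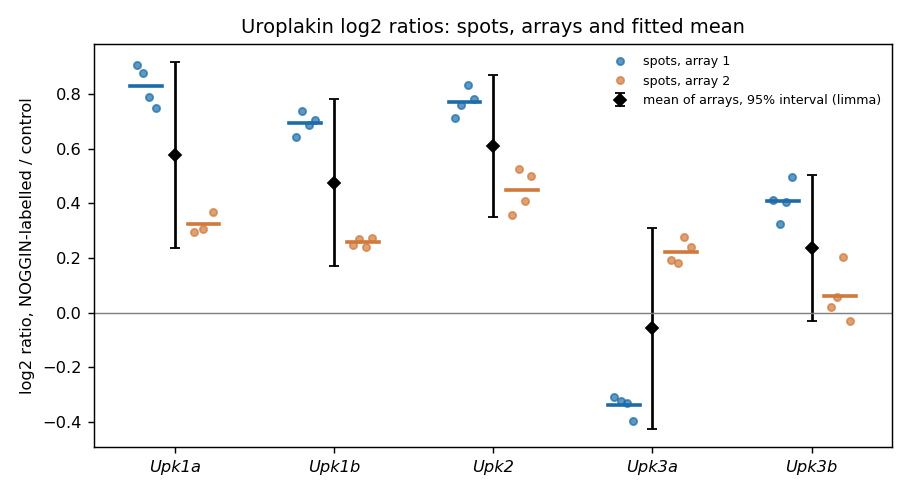
Log2 ratio of the NOGGIN-labelled over the control channel (vertical axis) for each spot on array 1 (blue) and array 2 (orange), with coloured bars at the array means. Black diamonds with bars give the mean of the arrays and its 95% interval from limma. The spots of each array stay close together, while the arrays stand apart, at 0.83 and 0.32 for Upk1a and at -0.34 and 0.22 for Upk3a.

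Set side by side as partners, Upk1a and Upk2 had almost the same ratios. Upk1a minus Upk2 was 0.058 on array 1 and -0.12 on array 2. The tetraspanin genes also ran together, with Upk1a minus Upk1b at 0.14 and 0.065. Upk1b and its partner Upk3a differed by 1.03 on array 1 and by 0.034 on array 2, a mean of 0.53 ± 0.71, so the gap between them rested on array 1. Upk1b minus its other partner Upk3b was 0.28 and 0.20. These differences are descriptions of 2 arrays and were not tested.

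Among 15804 other genes with a symbol, those nearest to a member by the distance between their pairs of log2 ratios on the 2 arrays were listed, 2 for each member. They were Celf3 and Tbc1d8b for Upk1a (distances 0.0556 and 0.0791), Dlc1 and Map2 for Upk1b (0.00768 and 0.0133), and Adcyap1 and Slc24a2 for Upk2 (0.0274 and 0.0376). For Upk3a they were Rpl12 and Lce1a2 (0.0162 and 0.0283), and for Upk3b Tug1 and Ltn1 (0.00417 and 0.00590). No member was among the 2 nearest genes of another.

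**Figure D3:**
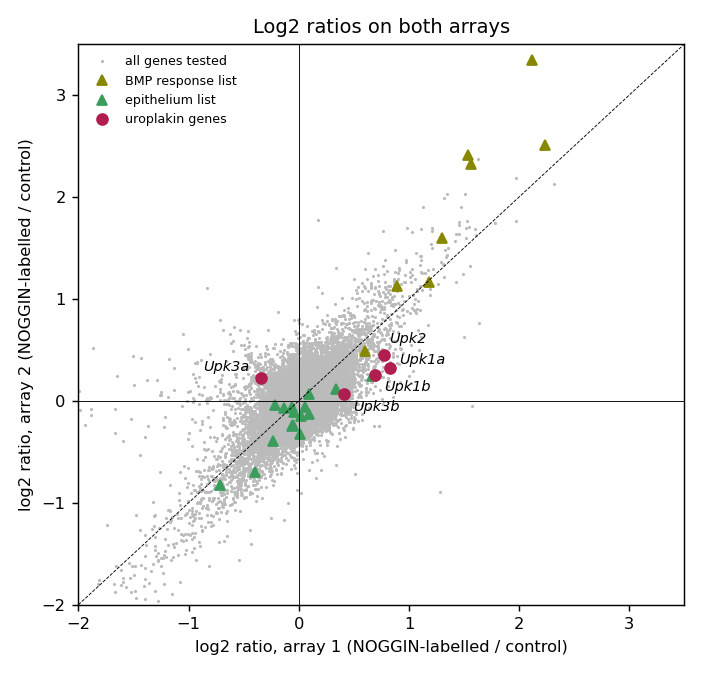
Log2 ratio on array 2 (vertical axis) against that on array 1 (horizontal axis), NOGGIN-labelled over control, for all genes tested (grey), the BMP response list, the epithelium list and the uroplakin genes. The dashed line marks equal ratios, and 24 genes lie outside the drawn range. Upk1a, Upk1b and Upk2 lie right of the bulk and below the line, and Upk3a lies on its upper left.

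Upk3bl, the gene next to Upk3b on the chromosome and a relative of it by sequence, went the other way. Its log2 ratio was -0.66 on array 1 and -0.70 on array 2, a mean of -0.68 ± 0.028 (adjusted p = 0.0106 in limma), and its second probe gave -0.67. Its levels of 11.23 and 11.26 in the controls lay above those of 10.58 and 10.57 in the NOGGIN samples. Upk3b minus Upk3bl was 1.07 and 0.76 on the arrays.

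Among genes of the vesicles that carry uroplakin plaques to the cell surface, 1 of 11 measured was called higher and 0 lower, near the 7.97% called over all genes, with a list median of 0.0013, beside 0.00083 over all genes tested. The called gene was Rab27b, a small GTPase on these vesicles, whose levels were 9.93 (control) and 11.01 (NOGGIN) on array 1 and 9.86 and 10.84 on array 2. Its log2 ratio was 1.08 and 0.98, a mean of 1.03 ± 0.075 (adjusted p = 0.00513 in limma), and its second probe gave 0.86. The vesicle protein genes Mal and Sytl2 were at -0.23 ± 0.036 and -0.23 ± 0.015, and neither passed. Snx31, a sorting nexin of uroplakin turnover, was not well above background on any array.

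The tetraspanin family at large, to which Upk1a and Upk1b belong, had a median of 0.045. Of 26 measured tetraspanin genes other than the uroplakins, 1 was called higher and 1 lower, near the 7.97% called over all genes. Tspan7 was higher by 0.49 ± 0.099 (adjusted p = 0.0283) and Tspan33 was at -0.51 ± 0.016 (adjusted p = 0.0210 in limma). Cd9 and Cd63, 2 widely made tetraspanin genes, were at 0.22 ± 0.055 and -0.34 ± 0.035 and did not pass.

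Of 14 transcription factor genes of urothelial differentiation, 4 were called higher and 1 lower, beside 3.95% and 4.03% of all genes, with a median of 0.12. Pparg, a nuclear receptor gene of urothelial maturation, was higher by 2.00 ± 0.53, with 1.63 on array 1 and 2.37 on array 2, so it was larger on array 2 while 4 uroplakin genes were larger on array 1. Its dimerisation partner Rxra was higher by 0.51 ± 0.0065 at its brighter probe, but its second probe gave 0.12 ± 0.0028. With the mean of both probes Rxra was at 0.31 and did not pass (adjusted p = 0.0601 in limma). The forkhead factor Foxa1 was higher by 0.55 ± 0.0089 and Ovol1 by 0.62 ± 0.13. Ehf, an ETS factor of epithelia, was at -0.66 ± 0.043. Grhl3, a grainyhead factor of superficial cells, did not pass at 0.30 ± 0.38, with 0.57 and 0.037 on the arrays.

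Of 16 general epithelial genes measured, 0 were called higher and 2 lower, the tight junction genes Cldn3 at -0.77 ± 0.078 and Cldn4 at -0.55 ± 0.22, beside 3.95% of all genes called higher and 4.03% lower, and the median was -0.090. Cldn4 lost its call with Agilent's processed signals, with the mean of its probes and with the authors' deposited table (adjusted p from 0.0527 to 0.0592 in limma). Epcam and Cdh1, which encode epithelial adhesion proteins, were at -0.077 ± 0.050 and -0.018 ± 0.16. The log2 of this list's summed levels was 18.34 (control) and 18.40 (NOGGIN) on array 1 and 18.46 and 18.36 on array 2. The brightest genes, Krt18 and Krt8, weighed most in that sum. The keratin gene Krt19 came closest to the uroplakins, with 0.66 on array 1 and 0.25 on array 2, and did not pass at 0.46 ± 0.29 (adjusted p = 0.0920 in limma). Whole explants were measured, so fewer cells of a type and less RNA per cell cannot be told apart.

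Markers of basal and superficial urothelial cells gave 0 calls among 5, beside 7.97% of all genes called in either direction. The superficial keratin gene Krt20 was at -0.36 ± 0.49 and the basal genes Trp63, Krt5, Krt14 and Krt15 lay between -0.65 and 0.015, with a second Trp63 probe at 0.24. Upk1b and Upk3b are also known in mesothelium. Of its 5 measured markers, 1 was called lower and 0 higher, beside 4.03% and 3.95% of all genes. It was Wt1, which kidney progenitors also express, at -0.81 ± 0.39 (adjusted p = 0.0354 in limma), and it did not pass on the values of the authors' deposited table (0.0547). Msln and Lrrn4 were at -0.24 ± 0.20 and -0.039 ± 0.14. The log2 of the summed levels of the mesothelium list was 13.48 and 13.63 in the controls and 13.08 and 12.77 in the NOGGIN samples. Most of that sum was Wt1, at 13.04 and 13.24 in the controls and 12.51 and 12.15 in the NOGGIN samples. The median log2 ratio of the list was -0.040. Bnc1 did not pass the filter on dim probes, and Muc16 was not matched to a probe. The part of these cells in the uroplakin ratios was not tested.

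**Figure D4:**
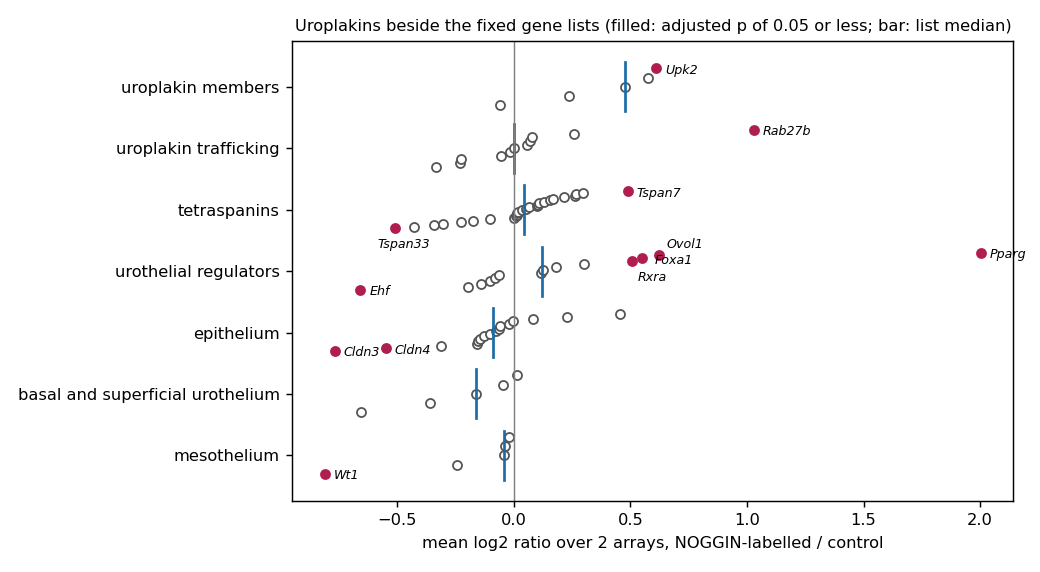
Mean log2 ratio over the 2 arrays, NOGGIN-labelled over control (horizontal axis), for each measured gene of 7 lists. Filled and named points passed an adjusted p of 0.05 in limma, and blue bars are list medians. The uroplakin median of 0.48 lies right of those of the tetraspanins (0.045) and the epithelial genes (-0.090).

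Across the whole series, 1701 of 21337 genes passed (a probe with no symbol counts by its accession), and the median log2 ratio of all genes was 0.00083. Direct BMP response genes, which a BMP antagonist should lower, were all higher in the NOGGIN-labelled channel (8 of 8 called, median 1.70), and the authors' deposited table has them all as negative fold changes. Markers of ureteric epithelium and mesenchyme (Epcam, Cdh1, Tbx18 and Pdgfra among them) were all measured above background. Of 7 mesenchyme markers, 1 was called higher and 1 lower, beside 3.95% and 4.03% of all genes. They were Tbx18 at 1.25 ± 0.27 (adjusted p = 0.00702 in limma) and Col3a1 at -0.89 ± 0.19 (adjusted p = 0.0103 in limma). For endothelium, macrophages, neural cells and nephron progenitors 0 of 5 markers each passed, beside 7.97% of all genes. No member spot was saturated, and having only 2 arrays bounds how precise any value can be.

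Except for Upk3b, the members' ratios changed little with the background correction, the scaling and the averaging of spots. Other filters, the mean of probes and other tests could not move them, since each member had 1 probe that every filter kept. Over all 12 other ways of processing, Upk2 stayed between 0.58 and 0.64, Upk1a between 0.53 and 0.59 and Upk1b between 0.44 and 0.50. Upk3a stayed between -0.093 and -0.051. Upk3b, the dim probe, ranged from 0.22 to 0.44. The deposited table entered this comparison with its sign turned.

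**Figure D5:**
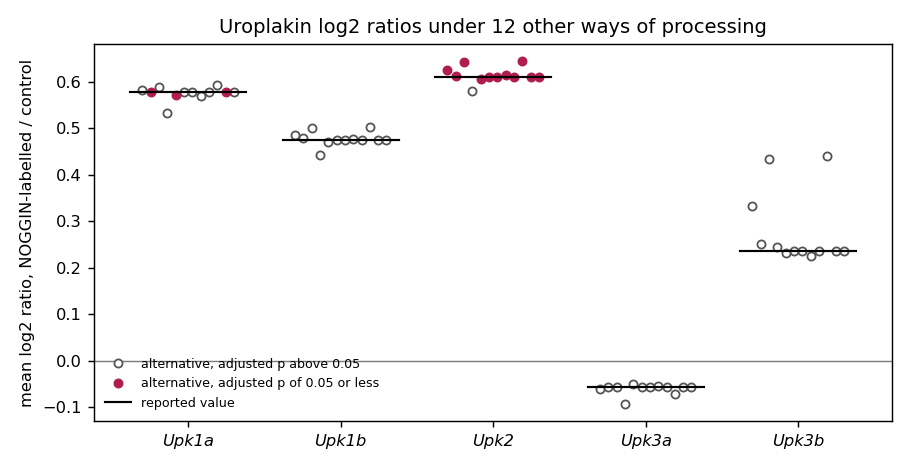
Mean log2 ratio, NOGGIN-labelled over control (vertical axis), of each uroplakin gene under 12 other ways of processing (points, filled where the adjusted p was 0.05 or less) and as reported (black bars). Upk2 is filled in all but 1 of them, and Upk3b spreads furthest, from 0.22 to 0.44. The authors' deposited table is drawn with its sign turned.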

How the data were processed

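The members, lists and tests were chosen with earlier results of these data known. Each deposited scanner file gives linear spot intensities for 1 array; the submitters' processing notes name Agilent Feature Extraction, version 10.7.3.1. Per the file headers they also hold the software's log10 ratio of red over green, which was only checked against the processed signals. The authors' deposited table gives a signed fold change (ratio) per probe and array. No source used here describes its making, and the median is 1 on either array. Over 21792 bright kept probes its log2 values had r = -0.983 and -0.984 with the ratios oriented by the label dyes, with slopes of -1.08 and -1.09, so it matches in scale but not in sign.

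Normexp (offset 50) removed the local background, and loess was fitted within arrays, with control, outlier and 22693 filler spots at weight 0. Spots of a probe were averaged. Of 39429 probes, 28328 were named through RefSeq accessions (GRCm38.p6, used for names and promoter sequences). Probes stayed in (26712 of them) when, in at least 1 condition, a share above 0.5 of the spots exceeded background clearly on both arrays, and the brightest stood for its gene. Log2 ratios were compared with 0 by limma 3.58.1 (R 4.3.3; Benjamini-Hochberg over 21337 genes; 1 residual and 4.12 prior degrees of freedom). For channel levels, average intensities were also quantile-normalised between the arrays.

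Named are the 5 members, at most 4 called genes of each list, some members that did not pass, and the 2 genes nearest to each member. The gene lists are described by counts and medians. Other settings tried were other background corrections, scalings, filters, summaries, tests and thresholds, the deposited table with its sign turned, and each array alone.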

Additional observations from a re-analysis of the deposited data

How the results depend on the processing

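Because the deposited table was entered with its sign turned, its agreement in sign was fixed beforehand. Other filters, the mean of probes, trended and robust moderation and the model of separate channels could not move a member's ratio either. Each member had 1 probe, which every filter kept. With those limits, each uroplakin ratio kept its sign in the 12 other fits. Upk2 passed in 11 of them and lost its call with median centring (0.58, adjusted p = 0.180), where 0 of all genes passed in limma against 1701 in the reported fit (3572 with an unadjusted p of 0.05 or less). Upk1a passed with no background correction (0.58), with loess and scaling between arrays (0.57), with trended and robust moderation (0.58) and at an adjusted p of 0.1 (0.58), and Upk1b passed only at that threshold (0.48). The number of genes called ran from 1418 to 2002 in the other fits except median centring, and was 2691 at an adjusted p of 0.1. With 1 array alone, which leaves no test, values ranged from 0.32 to 0.83 for Upk1a, 0.26 to 0.69 for Upk1b, 0.45 to 0.77 for Upk2, -0.34 to 0.22 for Upk3a and 0.062 to 0.41 for Upk3b. Each array already pairs a control with a NOGGIN sample, and a model of separate channels changed no uroplakin call. Besides median centring, calls in a gene list moved by at most 2, as in the tetraspanin list from 1 to 3 lower. Upk3b is limited by its low signal over background.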
